A study of Homo sapiens with 8 samples.

Results

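The 143 genes described here were those whose exon read level in factory RNA-Seq, a nascent RNA assay, was higher in both MetaICM libraries of IMR90 fibroblasts than in every other library of the series. They were selected on measured levels. Levels are given as CPM, the read pairs on a gene's exons scaled by the library's total, and a gene was kept with at least 2 CPM in both MetaICM libraries and a lower MetaICM value of at least 1.5 times the highest of the 6 other libraries. This ratio, the lower MetaICM level over the highest other level, is used throughout. Of 28265 genes in the tables, 12728 reached 2 CPM in both MetaICM libraries and could therefore be kept, and the 143 members made up 1.12% of these. The levels in MetaICM against the other groups are what chose the genes, and they are given as a description, with no test.

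IMR90 is a line of human fetal lung fibroblasts, used here at low passage. Factory RNA-Seq was made from 4 groups with 2 libraries each, namely cells without treatment (young), cells after 3 or 6 days with inflachromene (ICM), a small molecule that binds HMGB1 and HMGB2, and cells labelled MetaICM, for which the labels give neither a time nor a dose and whose meaning the sources do not explain. Factory RNA-Seq reads RNA made at sites of active transcription, although the labels describe RNA from directly lysed cells that was selected for poly(A) tails. How far the libraries differ in the share of mature RNA was not tested. The labels do not say whether libraries of a group came from separate cultures, so p-values measure only the spread between these libraries, and a lower level can mean less RNA per cell or fewer cells that make it.

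The libraries held 12095123 to 23166405 counted read pairs, and those of MetaICM 20415790 and 23166405. Cell identity was checked on marker lists. The 10 fibroblast markers all exceeded 2 CPM in both MetaICM libraries and summed to 20176 to 21158 CPM there, against 22387 to 23221 in young and 11005 to 14787 with ICM. The 10 blood cell markers summed to 14.4 to 14.8 CPM in MetaICM and to 5.21 to 6.25 in young and 18.6 to 23.2 with ICM, with CD3E, MS4A1, HBA1 and HBA2 at 0 reads in both MetaICM libraries. Endothelial markers summed to 226 to 240 CPM in MetaICM against 183 to 199 in young and 144 to 209 with ICM, with CDH5 at 0 in MetaICM. Epithelial markers summed to 67.5 to 70.7 CPM in MetaICM against 69.8 to 100.1 in young and 36.7 to 39.999 with ICM, with NKX2-1 at 0 in MetaICM. The 25 genes of a mitosis list summed to 2097 to 2167 CPM in MetaICM, between 3464 to 3695 in young and 226 to 300.1 with ICM.

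Fibroblasts exchange signals through secreted factors of the WNT, FGF and BMP families, through integrins that anchor them to the matrix, and through receptors for lipids and peptides. They also secrete complement and pentraxin proteins, and interferon-stimulated genes such as MX1 and IFI6 are switched on through a short promoter element, the interferon-stimulated response element. D-type cyclins carry growth signals into the cell cycle, and TXNIP binds thioredoxin and restrains glucose uptake.

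The members reached ratios of 1.501 to 9.41, with a median of 1.70. In all, 45 had a ratio of at least 2, 13 of at least 3 and 6 of at least 4. For comparison, the median over the 12728 genes that could be kept was 0.766. The threshold cut through a dense range. The members just inside it were NSG1 at 1.501, SHANK2 at 1.501 and FZD2, a WNT receptor, at 1.505, and genes just outside included MXRA8 at 1.497 and MOXD1 at 1.491. With the ratio lowered by 0.25, the number of members was 448. Leaving out young replicate 1 gave 226 genes and leaving out MetaICM replicate 1 gave 249, and each left all 143 members in place, because a rule over fewer libraries can only add genes.

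The 2 MetaICM libraries were close to each other. They lay within 1.2-fold for 119 of the 143 members, and the median absolute log2 difference was 0.0964, beside 0.0972 over all genes that could be kept. The members together took 1.39% and 1.58% of the counts in MetaICM, against 0.536% to 0.751% in the other libraries. The highest of the 6 other libraries was a young one for 76 members, an ICM 6 days one for 44 and an ICM 3 days one for 23.

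**Figure D1:**
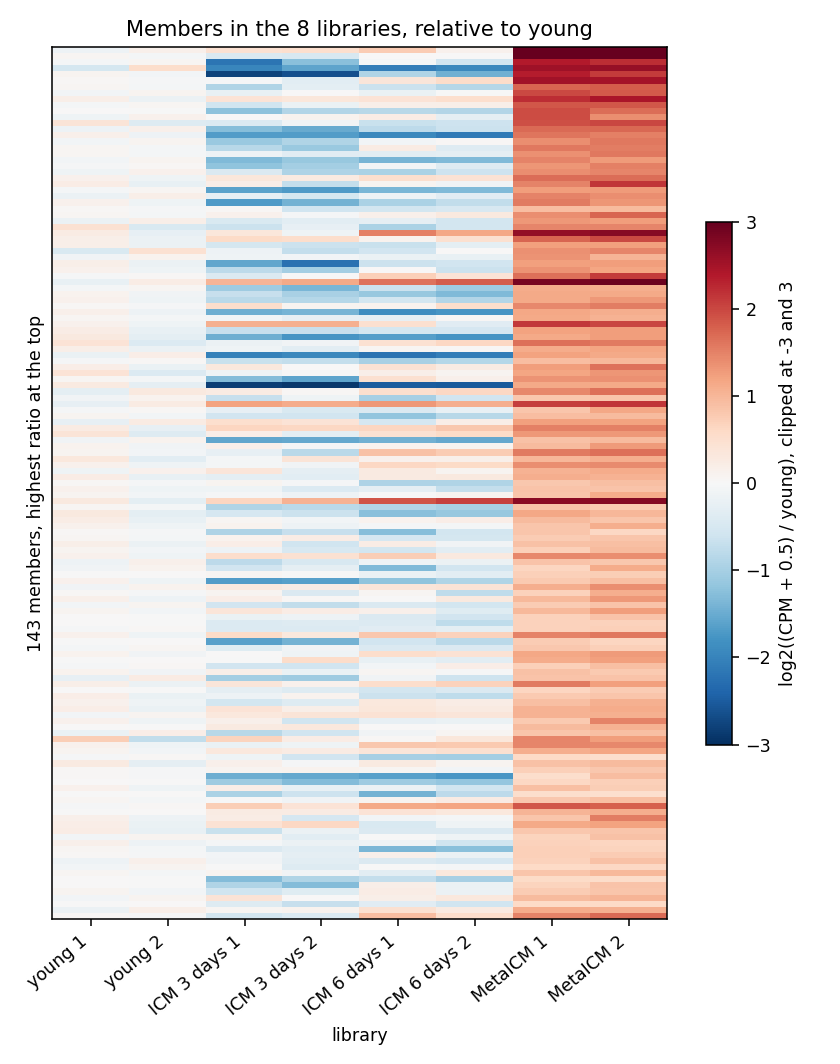
The 143 members (rows, highest ratio at the top) in the 8 libraries (columns), as log2 of CPM + 0.5 relative to the mean of the 2 young libraries and clipped at −3 and 3. The MetaICM columns are red throughout because the rule chose them so, whereas the ICM columns hold both blue rows, such as TMEM178B, and red ones, such as INMT and ACKR3.

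Most members encode proteins, 136 of 143, as do most genes that could be kept, 11608 of 12728. The other members were 3 long noncoding RNAs, 3 copies of the 7SL RNA of the signal recognition particle and 1 small nucleolar RNA. They lay on 23 chromosomes, and 12 had another member within 100 kb. TMEM176A and TMEM176B overlapped each other's span on chromosome 7, as did ATP6V0E2 and its antisense ATP6V0E2-AS1. Exons of 30 members overlapped those of another gene, and since pairs on several genes were not counted and strand was not used, these members may be undercounted or hold reads of a partner. RN7SL1, RN7SL2 and RN7SL3 are near-identical copies whose reads may be split between them, and HBD, PSG5 and EEF1A2 have close paralogues, so these are uncertain.

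Base composition moved with membership. The exons of the members had a median GC content of 55.0%, against 48.0% for the genes that could be kept, and a median length of 3030 bases against 3740. Split into 5 bins of equal size by GC content, members made up 0.119% of the genes in the lowest bin and 0.674%, 0.991%, 1.55% and 2.22% in the following ones. The libraries differed in the same direction. In the highest bin, the median gene stood 0.32 and 0.38 log2 units above the young mean in the MetaICM libraries, 0.26 and 0.14 above at 3 days of ICM and 0.03 and 0.01 above at 6 days, and in the lowest bin it stood 0.13 and 0.14 below in MetaICM. When each library was scaled within these bins, an alternative added after the data were seen, 103 genes met the rule, of which 86 were among the 143 members and 17 were not. The 3 members and 115 other genes without a GC value were left unscaled there.

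**Figure D2:**
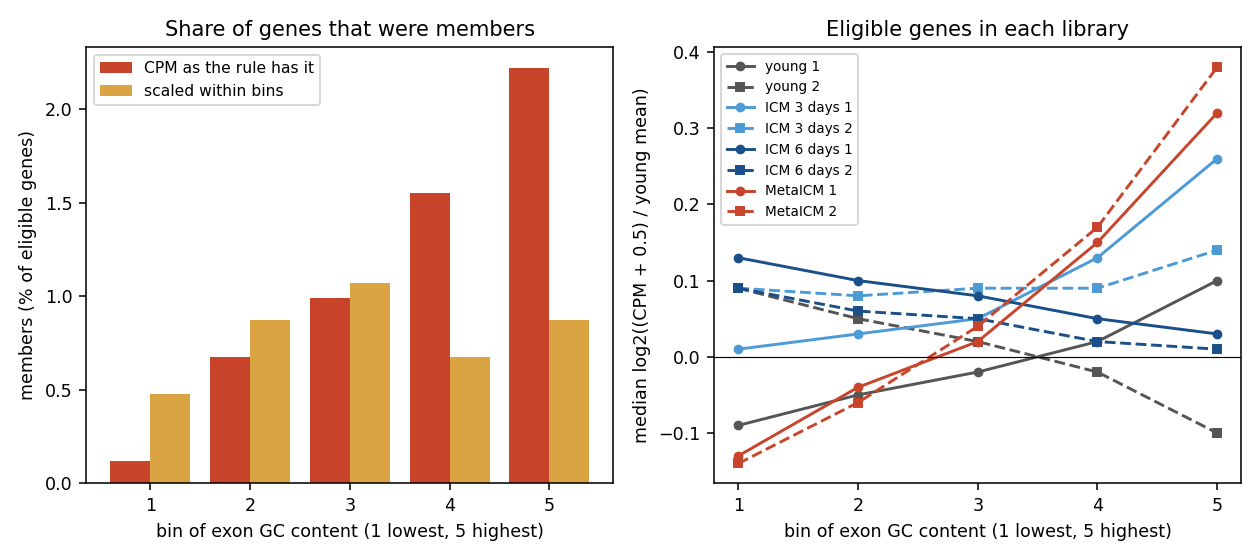
Left, members as a percentage of the genes that could be kept in each of 5 bins of exon GC content, by CPM (red, from 0.119% to 2.22%) and after scaling each library within the bins (yellow, from 0.476% to 1.07%). Right, the median log2 of CPM + 0.5 relative to the young mean in each of the 8 libraries, which rises with GC content in both MetaICM libraries. From the lowest to the highest bin it also rises in ICM 3 days replicate 1 (0.01 to 0.26) and young replicate 1 (−0.09 to 0.10). In young replicate 2 it falls (0.09 to −0.10), which mirrors replicate 1 because both are set against their own mean. It also falls in ICM 6 days replicates 1 (0.13 to 0.03) and 2 (0.09 to 0.01), and it goes from 0.09 to 0.14 in ICM 3 days replicate 2.

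Of the 45 members with a ratio of at least 2, 43 met the rule after that scaling, and SYT17 and NPM2 did not. These 2 still had ratios of 2.89 and 1.88, over 1.5, and what they missed was the minimum of 2 CPM. The ratios of the 45 members moved as well, and 18 of the 45 were then under 2. WFDC1 went from 2.48 to 1.85, and ABCA3 from 3.71 to 2.91. Among the members with the highest levels, VIM had a ratio of 1.41 after scaling, GAS6 of 1.39, NES of 1.34, LGALS1 of 1.35 and PDLIM1 of 1.49, all under the threshold. RN7SL1 and RN7SL2 had 1.37 and 1.32, and DKK3 had 1.47. Membership of these genes therefore depends on the scaling, whereas that of LPAR3 (10.4 after scaling), ITGA8 (8.96), ADAMTS19 (4.75), SLC14A1 (4.94) and TMEM178B (4.24) does not.

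The highest ratios were those of LPAR3 and ITGA8. LPAR3, a receptor for lysophosphatidic acid on chromosome 1 of hg19 from 85277285 to 85358889, had 7.69 and 7.17 CPM in MetaICM. It had 0.170 and 0.331 CPM in young, 0.518 and 0.556 after 3 days of ICM and 0.761 and 0.317 after 6 days, so all other libraries held under 1 CPM. The young libraries together held 7 reads of it and those of MetaICM 323. It was too low for a test against young. ITGA8, the integrin alpha 8 chain that pairs with beta 1 and binds matrix ligands, lies on chromosome 10 from 15555948 to 15762334. Its level was 58.8 and 48.4 CPM in MetaICM, 5.34 and 4.88 in young, 3.63 and 3.54 after 3 days and 5.11 and 5.13 after 6 days. Thus ITGA8 stayed between 3.54 and 5.34 CPM in the 6 other libraries, and neither ICM comparison against young called it (log2FC −0.59, adjusted p = 0.099 at 3 days, and −0.05, adjusted p = 0.873 at 6 days).

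ADAMTS19, a secreted metalloprotease of the ADAMTS family, had 27.0 and 24.0 CPM in MetaICM, 4.60 and 5.04 in young, 0.659 and 1.74 after 3 days and 4.57 and 3.02 after 6 days. SLC14A1, a urea transporter, had 11.9 and 12.6 CPM in MetaICM and 0.966 and 2.56 in young. With ICM it fell (log2FC −3.88, adjusted p = 0.00212, and −5.66, adjusted p = 0.000769) to 0.0471 and 0.208 CPM at 3 days, and at 6 days to 1 read over both libraries, the one without a read allowing up to 0.163 CPM. The young libraries held 48 reads, which gives 60.3 times the 6-day level with a 95% exact binomial interval of 10.3 to 2430 that covers counting error only. TMEM178B, a membrane protein, had 21.8 and 18.3 CPM in MetaICM, 4.15 and 3.64 in young, 0.141 and 0.208 after 3 days and 1.85 and 1.11 after 6 days. Every ICM library of TMEM178B lay below both young ones.

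Other members with high ratios were GDF6, a BMP-family ligand, at 4.07, MGAT3, which adds the bisecting N-acetylglucosamine to glycans, at 3.92, the antiviral GTPase MX1 at 3.89, the spindle-orientation adaptor INSC at 3.79 and ABCA3, a lipid transporter, at 3.71. The axon guidance ligand SEMA6A reached 3.34, SYT17 of the synaptotagmin family 3.17, the creatine kinase CKB 3.04 and cyclin D2 (CCND2) 2.98. Complement C3 reached 2.78, FGF9 2.66, PNMA2 and IGFBP7 2.50 each, LRRC15 2.49 and WFDC1 2.48. INSC stayed low outside MetaICM, with 1.65 and 1.16 CPM in young, 2.03 and 1.87 after 3 days and 2.01 and 2.17 after 6 days, against 8.23 and 9.88 in MetaICM.

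**Figure D3:**
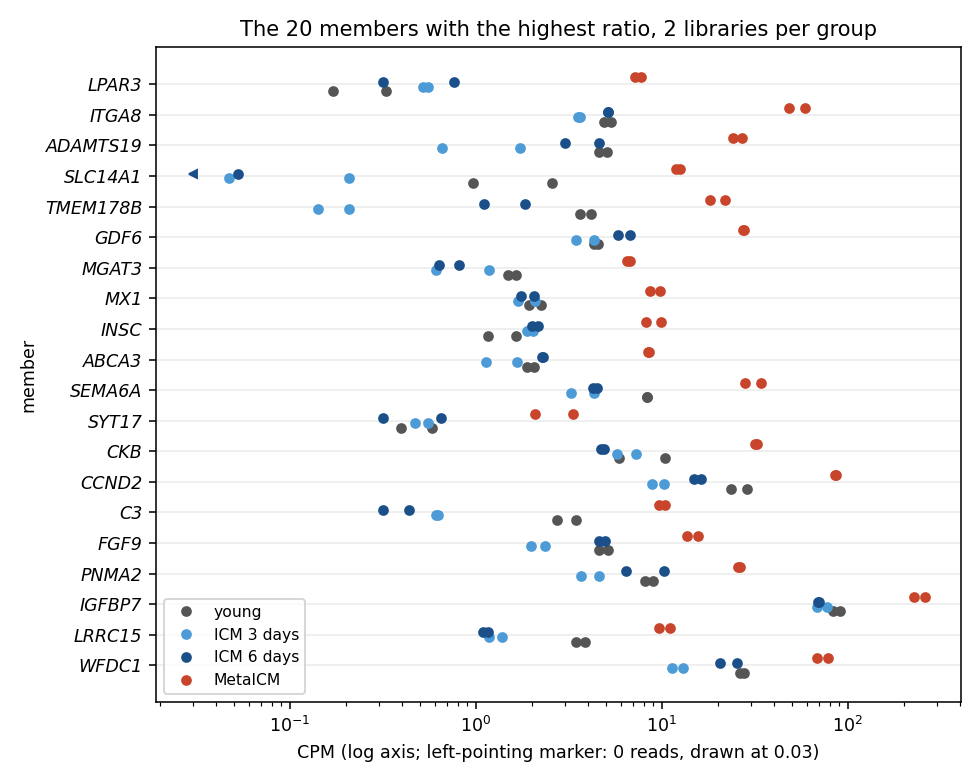
CPM (log axis) of the 20 members with the highest ratio in each of the 8 libraries, 2 points per group. The red MetaICM points lie to the right of all others in each row by the rule, while the order of the young (grey) and ICM (blue) points differs from gene to gene, as in SLC14A1, where ICM is far below young, and LPAR3, where it is not.

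Per length, the most abundant members in MetaICM were RN7SL1 at 5286 and RN7SL2 at 4486 RPKM, the CPM per kilobase of exon as the mean of 2 libraries. RN7SL1 had 1211 and 1949 CPM in the MetaICM libraries and RN7SL2 had 1021 and 1661, both lower in replicate 1. Vimentin (VIM), the intermediate filament of mesenchymal cells, followed at 1357 RPKM and galectin-1 (LGALS1) at 1171. GAS6, the ligand of TAM receptor kinases, stood at 286 RPKM and cyclin D1 (CCND1) at 254. The level of VIM was 2807 and 3041 CPM in MetaICM, 1802 and 1775 in young, 1475 and 1359 after 3 days and 1225 and 1326 after 6 days. Of its 2154 exon bases, 641 overlap an antisense gene.

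The rule did not ask how the members behaved with ICM itself, and 3 comparisons that do not involve MetaICM addressed this. Each gene was tested with edgeR among all genes and called with a Benjamini-Hochberg adjusted p under 0.05 and an absolute log2FC over 0.6. The rule capped the highest of the 6 libraries, so a gene that rose with ICM could stay among the members only below that cap, and the counts by direction are a description. The first and second comparisons share the young libraries, and the third shares the ICM libraries with both.

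After 3 days of ICM, 42 of the 141 members tested were lower than in young and 3 were higher, where 13.2% and 8.85% of all 15692 genes tested were lower and higher. LPAR3 and SYT17 were too low for this test. After 6 days, 38 of 142 were lower and 9 higher, where 17.2% and 13.3% of all 15950 genes were. The median log2FC of the members tested was −0.34 and −0.19, against 0.01 and 0.00 for all genes. At both times 29 members were lower and 2, INMT and TENM1, were higher, none was called in opposite directions, and 80 had no call at either time. These joint counts are given without a share over all genes. Both comparisons use the same young libraries, so their agreement is a description only and not a trait of the members.

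**Figure D4:**
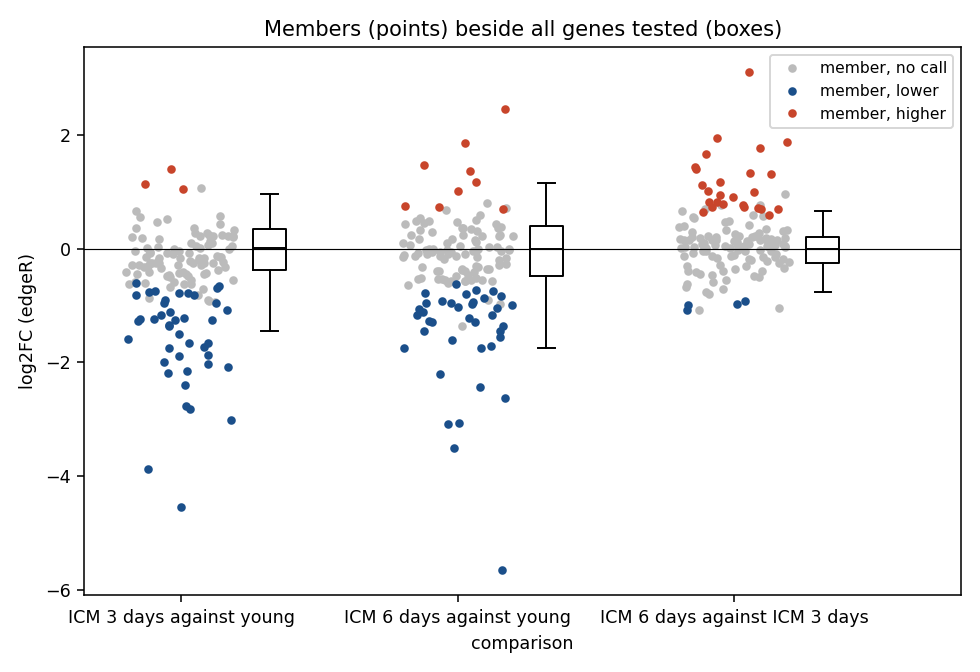
log2FC of the members tested (points) in the 3 comparisons, coloured by call, beside boxes for all genes tested (quartiles, with whiskers at the 5th and 95th percentiles). Against young, 42 and 38 members are called lower (blue), and between 3 and 6 days 26 are called higher (red).

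The 6 largest falls at 3 days were in TMEM178B, SLC14A1, PTX3, PRRX2, KISS1 and C3. PTX3, a pentraxin that opsonizes microbes, lies on chromosome 3 from 157154639 to 157161421 and had 125 and 86.9 CPM in young, 14.2 and 13.7 after 3 days, 18.0 and 17.7 after 6 days and 229.8 and 231 in MetaICM. Its log2FC was −3.01 (SE 0.19, adjusted p = 2.69e-07) at 3 days and −2.62 (SE 0.18, adjusted p = 2e-06) at 6 days. C3, the central complement component, fell from 3.10 ± 0.522 CPM (SD, n = 2 libraries) in young to 0.619 ± 0.00896 and 0.376 ± 0.0832, with log2FC −2.40 and −3.08 (adjusted p = 0.00053 and 0.000148), and stood at 9.98 ± 0.501 in MetaICM. C7, another complement component, was not called, with log2FC −0.47 and −0.30. Kisspeptin (KISS1), a peptide ligand, fell by 2.76 and 3.07 on the log2 scale, the gastrin-releasing peptide receptor GRPR by 1.88 and 2.43, and the homeobox factor PRRX2 by 2.82 and 3.50 (adjusted p between 0.000207 and 0.00161 for these 3 genes). PRRX2 rested on 8 reads at 3 days and 5 at 6 days, and its ratio after GC scaling was 1.23. KISS1 rested on 8 and 3 reads in the libraries at 3 days and on 9 reads over both at 6 days.

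TXNIP, the only member on a list of 19 FOXO, quiescence and autophagy genes, had 131 and 171 CPM in young, 36.4 and 39.0 after 3 days, 32.1 and 35.5 after 6 days and 348 and 331 in MetaICM. It fell with ICM, with log2FC −2.08 at 3 days and −2.20 at 6 days (SE 0.15 and 0.14, adjusted p = 6.3e-07 and 1.14e-06). NES, the intermediate filament nestin, was called lower at both times (log2FC −0.69, adjusted p = 0.0122, and −1.27, adjusted p = 0.000293). Its young libraries differed, at 454 and 304 CPM, and without young replicate 1 the 3-day value was −0.33 and no longer passed, nor did it without ICM 3 days replicate 2 (−0.60). UACA, a nuclear and cytoskeletal ankyrin-repeat protein, fell stepwise, from 464 and 426 CPM in young to 329 and 357 at 3 days and 171 and 185 at 6 days, and stood at 724 and 702 in MetaICM. Of these values, the fall from 3 to 6 days passed the test (log2FC −0.92, adjusted p = 5.54e-07), as did that from young to 6 days (−1.36, adjusted p = 9.36e-06), and that from young to 3 days missed the fold limit (−0.45).

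Among members that rose with ICM, the levels were ordered young, 3 days and 6 days in some genes, such as INMT and ACKR3, but not in P3H2. MetaICM was highest in each by the rule, so its place adds nothing to this order. INMT, an indolethylamine methyltransferase, had 2.27 and 3.22 CPM in young, 6.03 and 6.60 after 3 days, 9.41 and 10.8 after 6 days and 22.7 and 24.0 in MetaICM, with log2FC 1.14 and 1.86 against young (adjusted p = 0.00747 and 0.000138). ACKR3, a scavenging receptor for the chemokine CXCL12, had 0.852 and 0.413 CPM in young, 1.22 and 1.81 after 3 days, 3.59 and 4.07 after 6 days and 6.76 and 7.04 in MetaICM. The 3-day log2FC of ACKR3 was 1.08 (adjusted p = 0.11) and the 6-day one 2.46 (SE 0.37, adjusted p = 0.00043). The teneurin TENM1 rose by log2FC 1.40 and 1.48 (adjusted p = 0.0102 and 0.00452), the first not passing without ICM 3 days replicate 1 (adjusted p = 0.0785). The glutamate transporter SLC1A1 rose at 6 days (log2FC 1.17, adjusted p = 0.000236). P3H2, a collagen prolyl hydroxylase, rose at 6 days as well (log2FC 0.75, adjusted p = 0.000986), and without young replicate 2 its log2FC was 0.59, under the limit.

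The direct comparison of 6 with 3 days had 26 of 139 members higher and 4 lower, where 3.53% and 4.54% of all 15845 genes were higher and lower. SLC14A1, NPM2, KISS1 and PRRX2 were too low for it. The median log2FC of the members was 0.12, against −0.01 for all genes. Of the 26, 8 were lower than young at 3 days and had no call against young at 6 days. This joint count is also a description only, without a share over all genes. CCL2, the monocyte-attracting chemokine on chromosome 17 from 32582304 to 32584220, had 7.50 and 6.86 CPM in young, 2.64 and 2.08 after 3 days, 10.2 and 7.99 after 6 days and 18.9 and 19.3 in MetaICM. Its log2FC was −1.67 at 3 days against young (adjusted p = 0.000526), 0.29 at 6 days against young (adjusted p = 0.262) and 1.95 between them (SE 0.23, adjusted p = 5.07e-06). CCL2 was the single member of 15 cytokine, chemokine and NF-κB target genes that could be kept, and at 3 days 12 of the 23 genes of this list that were tested were lower and 2 higher, beside 13.2% and 8.85% of all genes.

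ADAMTS19 followed the same course, with log2FC −2.16 at 3 days (adjusted p = 0.00131), −0.39 at 6 days (adjusted p = 0.244) and 1.78 between the times (adjusted p = 0.00181). TMEM178B fell by 4.55 at 3 days and by 1.45 at 6 days on the log2 scale, and the difference of 3.10 between the times passed (adjusted p = 0.000503). The Notch ligand DLL4 had 8.92 and 6.78 CPM in young, 1.78 ± 0.748 (mean and SD of both libraries) after 3 days, 4.79 and 5.08 after 6 days and 19.1 and 19.4 in MetaICM, and differed by 1.44 between the times (adjusted p = 0.00113). Its fall at 6 days against young (log2FC −0.73, adjusted p = 0.0217) did not pass without young replicate 1, ICM 6 days replicate 1 or ICM 6 days replicate 2 (−0.48, −0.67 and −0.78). The tight junction protein CLDN1 was lower at both times (log2FC −1.75 and −0.93, adjusted p = 8.9e-05 and 0.00243), and higher at 6 than at 3 days by 0.82, a call that was lost without ICM 6 days replicate 2.

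The D-type cyclins differed from each other. CCND1 had 442 and 372 CPM in young, 391 and 376 after 3 days, 620 and 603 after 6 days and 1067 and 1082 in MetaICM, and CCND2 had 23.4 and 28.7, 10.3 and 8.82, 15.0 and 16.3, and 85.4 and 86.7 CPM in the same order. CCND2 fell by 1.51 at 3 days and by 0.77 at 6 days on the log2 scale (adjusted p = 5.3e-05 and 0.00231). The log2FC of CCND1 was −0.17 (adjusted p = 0.386) and 0.54 (adjusted p = 0.00608), neither called, the second because it missed the fold limit. From 3 to 6 days both rose, by log2FC 0.70 and 0.73 (adjusted p = 9.85e-06 and 0.002). No gene of the mitosis or DNA replication list, 25 genes each, was a member. The share over all genes that could be kept was 1.12%, so lists of this size can hold none at that same share.

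**Figure D5:**
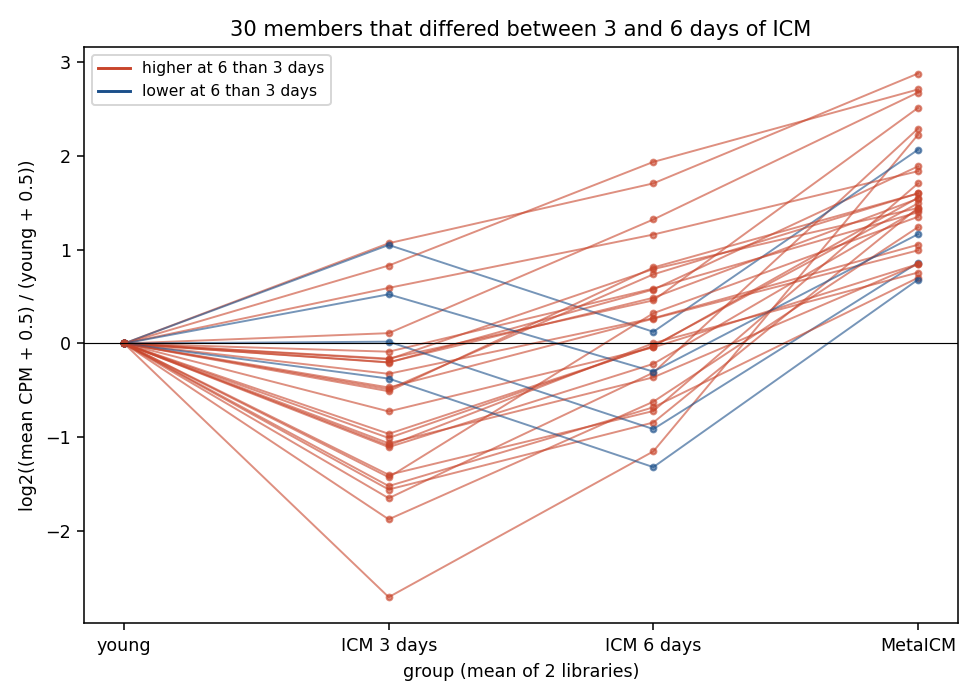
Mean level of the 30 members called between 3 and 6 days of ICM in the 4 groups, as log2 of the mean CPM + 0.5 relative to young. The 26 called higher at 6 days (red) mostly dip or stay level at 3 days, and the 4 called lower (blue, CRIM1-DT, MEX3D, ADGRG1 and UACA) do the opposite from 3 to 6 days, while MetaICM is highest in each by the rule.

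Of 21 pathway lists, 7 held a member. The largest share was in the list of 26 WNT and Notch genes, where 4 of the 15 that could be kept were members (26.7%, beside 1.12% of all genes that could be kept). WNT16, a WNT ligand, had 4.09 and 2.81 CPM in young, 4.47 and 3.06 after 3 days, 10.6 and 8.20 after 6 days and 23.9 and 25.6 in MetaICM, and rose at 6 days against young (log2FC 1.36, adjusted p = 0.00141) and against 3 days (1.31, adjusted p = 0.00026). DKK3, of the Dickkopf family of WNT modulators, had 130 and 107 CPM in young, 175 and 146 after 3 days, 208 and 190 after 6 days and 330 and 353 in MetaICM. The log2FC of DKK3 at 6 days was 0.70 (adjusted p = 0.00167), and 0.54 without young replicate 2. SFRP1, a secreted WNT antagonist, went the other way with ICM, from 90.4 and 79.0 CPM in young to 52.4 and 42.8 at 3 days and 37.9 and 33.4 at 6 days, with 187 CPM in both MetaICM libraries. It fell by 0.91 and 1.30 on the log2 scale (adjusted p = 0.000825 and 3.09e-05). WNT5B, also a ligand, fell by 0.81 at 3 days (adjusted p = 0.00456) and by 0.51 without young replicate 1, which is under the limit.

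No other gene of this list met the rule. The WNT receptor FZD2 and the Notch ligand DLL4, which are not on it, were members (ratios 1.505 and 2.14). Genes outside the list were not counted as a set, and the list was chosen with earlier results of these data known. After GC scaling DKK3 had a ratio of 1.47 and FZD2 of 1.33, both under 1.5. WNT16 (2.49), SFRP1 (1.99), DLL4 (1.77) and WNT5B (1.66) stayed over it. WNT5A, the most abundant WNT ligand, had 377 and 378 CPM in MetaICM, below its 544 and 624 in young and its 759.7 to 964 with ICM, and NOTCH1 had 94.0 and 96.3 in MetaICM against 107 and 81.4 in young. The whole list had 1 gene higher and 6 lower of 15 tested at 3 days (8.85% and 13.2% of all genes), and 3 higher and 4 lower of 17 at 6 days (13.3% and 17.2% of all genes). Among 27 growth factor and receptor genes that could be kept, FGF9 alone was a member. It had 4.60 and 5.13 CPM in young, 1.98 and 2.36 after 3 days, 4.57 and 4.97 after 6 days and 13.6 and 15.6 in MetaICM. Its fall at 3 days (log2FC −1.245, adjusted p = 0.00543) did not pass without ICM 3 days replicate 1 (adjusted p = 0.0531), and its rise from 3 to 6 days was 1.18 (adjusted p = 0.00239).

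Of the interferon-stimulated genes, 2 of 18 that could be kept were members (11.1%). MX1 had 9.75 and 8.68 CPM in MetaICM and 1.70 to 2.23 CPM elsewhere, and IFI6 had 8.77 and 10.3 CPM in MetaICM and 2.27 to 4.76 elsewhere. Neither was called with ICM (log2FC −0.22 and −0.16 for MX1, 0.10 and 0.60 for IFI6). At 3 days the list had 6 genes higher and 2 lower of 21 tested, beside 8.85% and 13.2% of all genes. Of the chaperones, HSPB1 and SDF2L1 were members among 19 that could be kept, at 96.2 and 120.2 CPM and at 4.56 and 4.62 CPM in MetaICM, with no call with ICM. Both had ratios under 1.5 after GC scaling, 1.29 and 1.38. SYNPO2, an actin-binding protein of muscle, was the member among 16 smooth muscle genes, with 91.3 and 96.1 CPM in MetaICM, 44.8 and 59.0 in young, 28.5 and 34.0 after 3 days and 47.6 and 53.2 after 6 days. The lists of p53 targets, NRF2 targets, collagens, hypoxia and cholesterol synthesis held no member among 30, 17, 26, 19 and 23 genes that could be kept. The share over all such genes was 1.12%, so lists of this size can hold none at that same share. The rule also works against genes raised by ICM, such as the NRF2 targets, of which 20 of 20 tested were higher at 3 days (8.85% of all genes).

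Promoter sequences of 250 bases before to 50 after the start, from RefSeq on GRCh38.p14, were matched by symbol for 102 of the 143 members. Of these, 7 held the core of the interferon-stimulated response element, searched on both strands as GAAANNGAA with N for any base, a share of 6.86% against 9.86% of 27305 genes and 8.93% of the genes that could be kept. The AP-1 site TGAGTCA stood in 10 (9.80%, against 6.05% of all and 4.71% of the genes that could be kept). For the other motifs the share of members is followed by that of the genes that could be kept and that of all genes. TATAAA was found in 8.82%, 8.70% and 14.0%, CCAAT in 42.2%, 43.6% and 39.7%, and GGGCGG in 78.4%, 76.4% and 48.3%. CACGTG was found in 13.7%, 12.4% and 8.77%, TGACGTCA in 2.94%, 3.90% and 2.25%, and the κB site in 0, 0.272% and 0.227%. Those of IFI6 (chr1:27672143-27672442, minus strand) and MX1 (chr21:41420308-41420607, plus strand, 1 of several starts) are shown because both are interferon-stimulated members, and those of LRRC15 (chr3:194369694-194369993, minus strand) and INSC (chr11:15112174-15112473, plus strand) because they are AP-1-site promoters among the members with the highest ratios. Capitals mark the element core in the first pair and the AP-1 site in the second, on either strand.
IFI6: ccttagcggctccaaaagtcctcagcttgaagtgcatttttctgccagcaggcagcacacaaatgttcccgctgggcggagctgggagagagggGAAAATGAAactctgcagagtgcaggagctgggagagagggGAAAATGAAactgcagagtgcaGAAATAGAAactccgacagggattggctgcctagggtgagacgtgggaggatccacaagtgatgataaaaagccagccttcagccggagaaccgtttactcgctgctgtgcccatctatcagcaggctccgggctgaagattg
MX1: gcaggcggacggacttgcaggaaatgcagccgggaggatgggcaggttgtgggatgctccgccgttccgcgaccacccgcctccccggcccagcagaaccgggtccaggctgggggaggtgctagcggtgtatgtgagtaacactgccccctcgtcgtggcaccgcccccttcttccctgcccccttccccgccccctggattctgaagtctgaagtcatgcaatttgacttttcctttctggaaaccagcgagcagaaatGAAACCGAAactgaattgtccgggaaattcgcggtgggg
LRRC15: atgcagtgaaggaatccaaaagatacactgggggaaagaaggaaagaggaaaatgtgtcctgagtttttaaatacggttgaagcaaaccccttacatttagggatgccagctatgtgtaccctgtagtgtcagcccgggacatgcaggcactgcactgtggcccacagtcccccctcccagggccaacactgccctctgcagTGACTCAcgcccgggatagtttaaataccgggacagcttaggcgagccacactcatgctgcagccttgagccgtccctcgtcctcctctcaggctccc
INSC: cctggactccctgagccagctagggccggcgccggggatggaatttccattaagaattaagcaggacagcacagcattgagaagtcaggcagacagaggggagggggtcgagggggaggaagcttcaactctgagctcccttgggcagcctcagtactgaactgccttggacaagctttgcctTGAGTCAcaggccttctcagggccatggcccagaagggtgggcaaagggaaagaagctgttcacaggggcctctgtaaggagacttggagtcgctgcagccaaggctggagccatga
The IFI6 promoter held 3 matches of the core and the others 1 match each. LRRC15, a leucine-rich repeat membrane protein of activated fibroblasts, had 11.1 and 9.67 CPM in MetaICM and fell with ICM (log2FC −1.60 and −1.74, adjusted p = 0.00255 and 0.000914), whereas INSC was not called. These matches describe the letters of the windows only.

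Grouped by role after the members were known, 88 of the 143 fell into 10 groups. Of 12 ligands, secreted or membrane-bound, and their antagonists, 8 were lower at 3 days and none higher, and 5 were higher at 6 than at 3 days. Over all members tested, 29.8% were lower and 2.13% higher at 3 days and 18.7% higher at 6 than at 3 days, where 13.2%, 8.85% and 3.53% of all genes were. At 6 days against young, 26.8% of the members tested were lower and 6.34% higher, where 17.2% and 13.3% of all genes were. Of 17 adhesion and matrix genes, 9 were lower at 3 days, 6 at 6 days, and 1, P3H2, was higher at 6 days. Of 12 receptors, 2 were lower and 2 higher at each time against young, ADGRG1 and TENM1 being the higher ones at 3 days and ACKR3 and TENM1 at 6 days. Of 12 cytoskeletal and chaperone genes, 10 had no call at 3 days and 11 at 6 days. The 7 noncoding RNAs had no call at 3 days and 1 lower at 6 days. A lack of calls was common, since 96 of the 141 members tested at 3 days and 95 of 142 at 6 days had none. No test was made on these groups, which were put together by hand.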

How the data were processed

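Factory RNA-Seq was analysed in 8 IMR90 libraries (young, ICM 3 days, ICM 6 days and MetaICM, 2 each), grouped by their titles. Per the labels and file headers, the authors used STAR (version 2.6.0c) for alignment to GRCh37 (hg19) and deposited counts of read pairs per RefSeq gene from featureCounts (version 1.6.3), unstranded, over exons, without normalization. Intronic counts were not analysed here.

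CPM were computed from library totals. The comparisons young, 3 days and 6 days of ICM were fitted 2 groups at a time with edgeR (version 4.0.16, R 4.3.3; TMM, filterByExpr at a count minimum of 10, quasi-likelihood test, Benjamini-Hochberg adjustment) over all genes passing the filter. The fit was tested on simulated data. Alternatives used DESeq2 (version 1.42.0), other size factors and filters, all 8 libraries in 1 fit, the replicate number as a block, an adjusted p under 0.01, each library left out, and, added after the data were seen, scaling within 5 equal bins of exon GC content. With 1 library left in a group, that library was assumed to vary like the others. For the rule itself, other ratios, CPM minimums, scalings and thinning to the smallest total were tried.

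The members and lists were chosen with earlier results of these data known. Genes named were the 20 members with the highest ratio and at least 10 counts in each MetaICM library, the 15 with the highest MetaICM level, those on a list, the 6 called with the largest log2FC in each direction, and the 3 on each side of the threshold, of which 1 outside it is not reported here. C7, NPM2, HBD, PSG5, EEF1A2, TMEM176A, TMEM176B, ATP6V0E2, ATP6V0E2-AS1, RN7SL3, CLDN1, WNT5A, NOTCH1 and the 30 members called between the times beyond this rule were named after their values were seen. Exon GC content came from GRCh37, promoters from RefSeq tables. A count of 0 allows up to 3 counts, and intervals and floors cover counting error only. Tables and plots were made in Python 3.11.15 (pandas 2.3.3, scipy 1.17.1).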

Additional observations from a re-analysis of the deposited data

Results flagged for a closer look

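The change with ICM differed between the time points for 30 members, by the direct test of 6 against 3 days of ICM (edgeR, adjusted over all genes tested). For 18 of them the call held whichever of the 4 libraries was left out. Among these, the log2FC of 6 against 3 days was CCND1 0.70, CCND2 0.73, SYNPO2 0.73, LYPD1 0.83, MAN1C1 0.91, WFDC1 0.95, P3H2 0.99, FGF9 1.18, WNT16 1.31, NSG1 1.34, ACKR3 1.40, DLL4 1.44, ADAMTS19 1.78, LRRN4CL 1.88, CCL2 1.95 and TMEM178B 3.10, all higher at 6 days, and MEX3D -0.99 and UACA -0.92, lower at 6 days.

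For the other 12, the call was lost without at least 1 library. Their log2FC was SLC1A1 0.60, STOML1 0.65, GDF6 0.69, INMT 0.71, CAMK2N1 0.76, KRTAP1-5 0.78, CLDN1 0.82, PNMA2 1.02, AFAP1L2 1.12 and FAHD2B 1.67, higher at 6 days, and CRIM1-DT -1.08 and ADGRG1 -0.97, lower at 6 days. The calls of CRIM1-DT and AFAP1L2 were lost without any of 3 of the 4 libraries, those of SLC1A1 and GDF6 without ICM 3 days replicate 2 or ICM 6 days replicate 2, those of ADGRG1, STOML1, INMT, KRTAP1-5 and CLDN1 without ICM 6 days replicate 2, and those of CAMK2N1, PNMA2 and FAHD2B without ICM 6 days replicate 1. Groups of 2 libraries allowed no search for a single outlying library.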

How the results depend on the processing

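The number of members depended on the ratio, with 448 genes when it was lowered by 0.25 and 45 when it was raised to 2. With each library left out it lay between 145 and 249, the highest without MetaICM replicate 1. With scaled totals, other CPM minimums, thinning or GC scaling it lay between 103 and 164. TMM-scaled totals gave 144 genes, 135 of them shared with the 143, and thinning all libraries to the smallest total gave 132 with 115 shared.

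The members called at 3 days against young (45), at 6 days against young (47) and between the times (30) stayed within 1.5 times of these counts under every alternative run. With each library left out they lay between 37 and 52, 35 and 50, and 25 and 35. The labels do not say whether libraries with the same replicate number belong together. Correlations of the deviations from the group means were 0.172, 0.054 and 0.076 over 2 pairs each, too few to decide it. With the replicate number as a block, 49, 48 and 34 members were called. Of the 78 calls of named genes, none turned its direction under any alternative. Over all alternatives that kept every library, 25 recomputed values no longer passed and 738 did, and with a library left out 35 did not and 277 did. The depth limits genes of few reads, such as SLC14A1, PRRX2, KISS1 and LPAR3, and TMEM178B at 3 days.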
